A study of Mus musculus with 4 samples.

Results

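The genotype by organ interaction is the difference between 2 genotype differences: how far deltaDC and wild-type (WT) regulatory T cells (Tregs) differed in thymus, minus how far they differed in spleen. It used all 4 arrays of the series, and by its rule a gene counted where it was well above background on each of them, which held for 12286 of 22296 genes on the array design. The 4 groups crossed WT and deltaDC with spleen and thymus, and each had 1 array. All mice were male C57BL/6, each array carried RNA of cells pooled from 3 mice, and the labels state no age. What deltaDC stands for is not stated in the labels; elsewhere the term is used of mice without dendritic cells. No gene or promoter is named by which the genotype could be checked. Splenic CD4 T cells were enriched by negative selection and thymic ones by removal of CD8-positive cells, so organ and enrichment cannot be told apart. Both were then sorted as DAPI-negative CD4+CD25+ cells, not on Foxp3.

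Tregs are CD4 T cells that restrain immune responses under the transcription factor Foxp3. They arise in the thymus, where they are picked for recognising self antigen on epithelial and dendritic cells, and circulate through spleen as resting, lymph node homing cells or as effector Tregs with receptors for inflamed tissue. Dendritic cells present antigen on MHC class II and give the costimulation that both stages use, so the comparison addresses which functions of Tregs depend on genotype in 1 organ and not in the other.

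Levels are given as scaled signals, the fluorescence of a gene's brightest probe after setting the 75th percentile of each array to 387.8, and differences as log2 units, where 1 unit is 2-fold. A negative interaction says that the gene was higher in deltaDC relative to WT by more in spleen than in thymus. With 1 array per group there is no replicate check and no p-value, and the interaction leaves 0 residual degrees of freedom. Errors are spot errors, from the spread between spots of 399 probes that each array carries 10 times, and hold no variation between mice or labellings. Their median for an interaction was 0.13, and a difference of at least 2-fold is called here a 2-fold one. Between 48.7% and 50.7% of spots were well above background on an array and 0 were saturated. Of the T cell list, 9 genes were on the design and all 9 were well above background on each array, with summed signals of 441200 in WT spleen, 452600 in deltaDC spleen, 389500 in WT thymus and 429300 in deltaDC thymus, and none differed 2-fold by genotype or by organ. Fewer cells of a type and less RNA per cell cannot be told apart in such pools.

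Genotype differences that depended on the organ were mostly those of spleen. Of the 12286 genes, 1094 (8.9%) had a 2-fold interaction, 807 (6.57%) of them negative and 287 (2.34%) positive. At 4-fold there were 279, of which 266 were negative. The median interaction of all measured genes was 0.07. Of the 1094 genes, 768 (70.2%) differed 2-fold by genotype in spleen and not in thymus, 627 being higher and 141 lower in deltaDC. In thymus and not in spleen 44 (4.02%) differed 2-fold, 16 higher and 28 lower. Another 21 differed in both organs in the same direction, 10 in opposite directions, and 251 in neither organ by 2-fold. Whatever the interaction, 8.13% of all genes differed 2-fold by genotype in spleen and 1.11% in thymus. After normexp background correction, which raises dim signals, 507 genes had a negative and 111 a positive 2-fold interaction, and 434 differed in spleen only and 17 in thymus only. Without the filter on dim genes the lean to negative values was absent, with 2012 negative and 2025 positive of 22296 genes (49.8% of calls negative, against 73.8%), and 2125 differed in spleen only and 848 in thymus only. Normexp brought 23 of 112 named genes under 2-fold, and for 34 of the 112 the interaction on the log2 scale was over 1.5 times the one after normexp. The 2 spleen arrays stood apart as single arrays: one of them lay at least 2-fold above or below each of the other 3 arrays for 602 of the 1094 genes, against 38 for a thymus array. Of those 602, deltaDC spleen was highest for 271 and lowest for 43, and WT spleen was lowest for 245 and highest for 43. With 1 array each, a genotype difference in spleen and a difference of a single spleen library cannot be told apart.

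**Figure D1:**
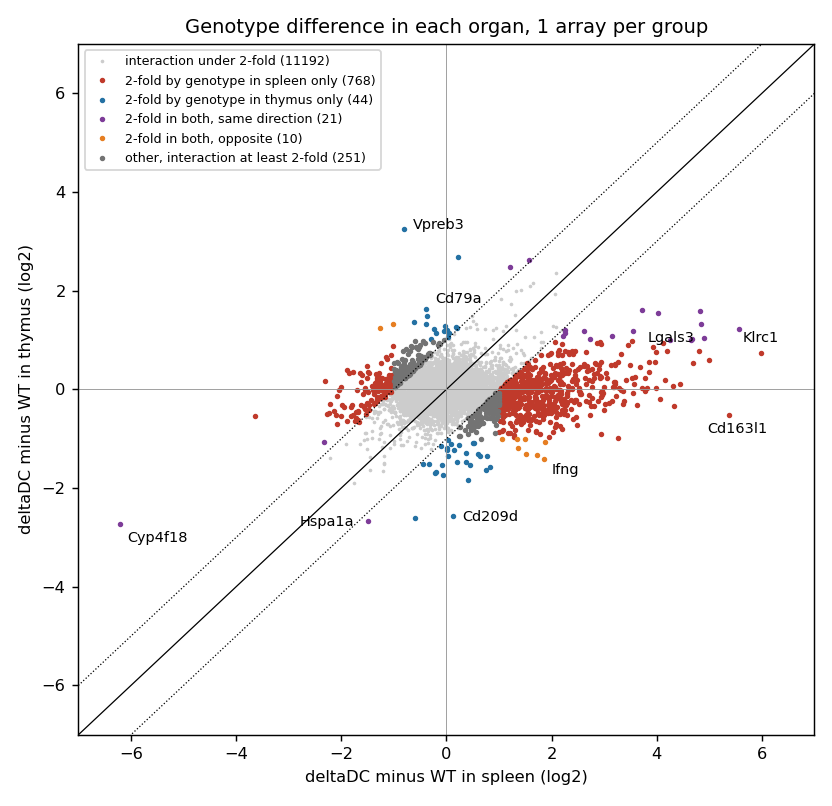
Each point is 1 of 12286 genes, with deltaDC minus WT in spleen on the horizontal axis and in thymus on the vertical axis, both in log2 units from 1 array per group; dotted lines mark a 2-fold interaction. The 768 genes that were 2-fold different in spleen only spread along the horizontal axis, mostly to the right, and the 44 that were so in thymus only lie along the vertical axis.

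The effector Treg programme differed by genotype in spleen and hardly in thymus. It holds the surface receptors, homing molecules and suppressive products that Tregs gain on activation. All but 2 of its 32 measured genes (30) had a 2-fold negative interaction, against 6.57% of all genes, and none a positive one. The list's median deltaDC minus WT difference was 2.16 in spleen and -0.01 in thymus. By genotype, 28 of the 32 were 2-fold higher in spleen, where 767 (6.24%) of all genes were, and 1 in thymus, where 66 (0.537%) were. The 2 exceptions were Lgals3bp, with an interaction of -0.65, and Tnfrsf9 (4-1BB, a costimulatory receptor), with -0.19. The list was put together with earlier results of these arrays known, so its count is a description.

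Galectin-3 (Lgals3) is a sugar-binding protein of activated lymphocytes and myeloid cells. Its scaled signals were 401 in WT spleen, 12849 in deltaDC spleen, 928 in WT thymus and 1402 in deltaDC thymus. The deltaDC spleen array alone was high, and the thymus arrays were within 2-fold of each other, giving an interaction of -4.41 (spot error 0.13). Cxcr6, the receptor for the chemokine CXCL16, had signals of 1606 in WT spleen, 41451 in deltaDC spleen, 1396 in WT thymus and 2027 in deltaDC thymus, with the same single high array and an interaction of -4.15 (spot error 0.12). The protease granzyme B (Gzmb) had 233 in WT spleen, 3203 in deltaDC spleen, 289 in WT thymus and 284 in deltaDC thymus, so that 3 arrays lay close together and the fourth 13.8-fold above WT spleen. Ccr2, a receptor for monocyte-attracting chemokines, followed the same course at lower signals, with 71.4 in WT spleen, 939.5 in deltaDC spleen, 94.6 in WT thymus and 96.4 in deltaDC thymus. Tigit, an inhibitory receptor, had 305 in WT spleen, 1431 in deltaDC spleen, 392 in WT thymus and 331 in deltaDC thymus. Over the list, deltaDC spleen was the single highest array for 19 of 32 genes, S100a4, S100a6, Anxa1 and Klrg1 among them, and WT spleen the single lowest for 5, namely Il1r2, Fgl2, Anxa2, Ccr8 and Itgae.

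Helper T cell cytokines had a median interaction of -3.23 over the 9 measured genes. It was -2.22 after normexp background correction and -1.99 without the filter on dim genes. Of the 9, 7 had a 2-fold negative interaction, while Il2 (-0.94) and Tnf (-0.32) stayed under 2-fold. The chemokine Ccl5, which draws T cells and monocytes, had signals of 2379.8 in WT spleen, 37633 in deltaDC spleen, 5734 in WT thymus and 5843 in deltaDC thymus, a genotype difference of 3.98 in spleen and 0.03 in thymus. Csf2, the growth factor GM-CSF, had 29.5 in WT spleen, 414 in deltaDC spleen, 53.9 in WT thymus and 54.7 in deltaDC thymus, an interaction of -3.79 or, after normexp, -2.22. Interleukin-4 (Il4), the cytokine of type 2 helper cells, had 66.1 in WT spleen, 1685 in deltaDC spleen, 23.4 in WT thymus and 47.3 in deltaDC thymus. It was higher in deltaDC in both organs, by 4.67 in spleen and 1.02 in thymus. The thymus difference just reached 2-fold and rests on low signals. On those arrays the lowest signals well above background were 15.7 in WT and 15.8 in deltaDC. Interferon gamma (Ifng), the cytokine of type 1 helper cells, went opposite ways, with 869 in WT spleen, 3162 in deltaDC spleen, 433 in WT thymus and 162 in deltaDC thymus. The 10 cytokine genes that were not well above background on each array included Il17a, Il17f and Il22, the type 17 cytokines, which passed it only on the deltaDC spleen array (signals there 56.9, 38.2 and 36.3).

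Transcription factors that set helper and innate-like lineages also lay on the negative side, 10 of 20 measured genes having a 2-fold interaction there (median -1.06) and none a positive one. Id2, which holds lymphocytes in effector and innate states, had 1302 in WT spleen, 15197 in deltaDC spleen, 1899 in WT thymus and 1799 in deltaDC thymus. T-bet (Tbx21), the factor of type 1 responses, had 723 in WT spleen, 6402 in deltaDC spleen, 452 in WT thymus and 385 in deltaDC thymus. Both were high on the deltaDC spleen array alone, with interactions of -3.62 and -3.38. PLZF (Zbtb16), the factor of natural killer T and other innate-like T cells, had 79.9 in WT spleen, 1032 in deltaDC spleen, 44.0 in WT thymus and 60.5 in deltaDC thymus. For PLZF too, deltaDC spleen stood alone on top. Gata3 (-0.13), Bcl6 (0.12), Eomes (-0.01) and Runx1 (-0.08) of the same list had interactions close to 0. Of the 20 measured factors, 8 also stand in a marker list of another cell type.

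Receptors that steer migration were mostly higher in deltaDC spleen. Of 19 measured chemokine and related receptors, 13 had a 2-fold negative interaction and 1 a positive one (median -1.74). Ltb4r1, the receptor for the lipid attractant leukotriene B4, had 197 in WT spleen, 4272 in deltaDC spleen, 284 in WT thymus and 304 in deltaDC thymus and an interaction of -4.34 (spot error 0.16). Cx3cr1, the fractalkine receptor, had 29.4 in WT spleen, 527 in deltaDC spleen, 286 in WT thymus and 325 in deltaDC thymus, so here the WT spleen array was low and the other 3 were within 2-fold of each other (interaction -3.97, or -2.25 after normexp). Cxcr3, which guides T cells to interferon-rich tissue, had 5187 in WT spleen, 23159 in deltaDC spleen, 2905 in WT thymus and 2061 in deltaDC thymus. The single positive member was Ccr7, the lymph node homing receptor, with 33588 in WT spleen, 18461 in deltaDC spleen, 35896 in WT thymus and 48985 in deltaDC thymus and an interaction of 1.31. S1pr1, which lets T cells leave lymphoid organs, had 0.94, Cxcr4 -0.40 and Cxcr5, the follicle homing receptor, -0.20.

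Receptors for interleukin-1 family cytokines followed the same side: 5 of 8 measured genes had a 2-fold negative interaction (median -1.86). Il18rap and Il18r1, the 2 chains of the interleukin-18 receptor, had interactions of -3.94 and -2.89, with Il18rap at 102 in WT spleen, 1260.2 in deltaDC spleen, 306 in WT thymus and 247 in deltaDC thymus. The ST2 chain of the interleukin-33 receptor (Il1rl1), a marker of tissue Tregs, had 951 in WT spleen, 4963 in deltaDC spleen, 1259 in WT thymus and 2155 in deltaDC thymus. Il1r2, a decoy receptor for interleukin-1, had 252 in WT spleen, 2037 in deltaDC spleen, 3384 in WT thymus and 2762 in deltaDC thymus, so that it was low on the WT spleen array rather than high on the deltaDC one. Il1rap, the shared signalling chain, had an interaction of -0.10, and the regulators Sigirr and Il18bp had 0.25 and -0.08.

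Killer lectin-like receptors, which natural killer (NK) cells and some activated T cells carry, had 6 of 8 measured members with a 2-fold negative interaction (median -2.69). Klrc1, the NKG2A chain, had 28.0 in WT spleen, 1769 in deltaDC spleen, 30.1 in WT thymus and 50.5 in deltaDC thymus, a 63.1-fold difference in spleen and one of 1.67-fold in thymus, or an interaction of -5.24 (-4.01 after normexp). Klrb1c, the NK1.1 antigen, had 85.3 in WT spleen, 2544 in deltaDC spleen, 49.6 in WT thymus and 102 in deltaDC thymus. Its relative Klrb1a had 53.5 in WT spleen, 1535 in deltaDC spleen, 31.9 in WT thymus and 79.8 in deltaDC thymus, and both were also 2-fold higher in deltaDC thymus than in WT thymus. Among 15 cytotoxic granule genes, 5 had a negative and 2 a positive 2-fold interaction, against 6.57% and 2.34% of all genes. The granule membrane protein Nkg7 had 2588 in WT spleen, 23544 in deltaDC spleen, 7326 in WT thymus and 7537 in deltaDC thymus. Granzyme A (Gzma) had 385 in WT spleen, 1744 in deltaDC spleen, 5442 in WT thymus and 7361 in deltaDC thymus, higher in thymus than spleen in both genotypes. Granzyme K (Gzmk) had 52.3 in WT spleen, 39.7 in deltaDC spleen, 38.8 in WT thymus and 96.8 in deltaDC thymus, and its interaction of 1.72 was 0.99 after normexp background correction. In the annexin, S100 and galectin list 11 of 21 genes had a 2-fold negative interaction (median -1.06), and deltaDC spleen was the high array for the calcium-binding proteins S100a4 and S100a6. S100a4 had 9024 in WT spleen, 95868 in deltaDC spleen, 11004 in WT thymus and 12641 in deltaDC thymus. S100a6 had 6550.4 in WT spleen, 73228 in deltaDC spleen, 4846 in WT thymus and 6800.5 in deltaDC thymus.

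Markers of NK cells and of innate-like lymphocytes lay on the same side, while those of other lymphocytes were mixed. Of all genes 6.57% had a negative and 2.34% a positive 2-fold interaction. Of 5 measured B cell markers 4 had a positive and 0 a negative 2-fold interaction (median 1.98). Of 5 CD8 T cell markers 1 had a positive and 0 a negative one (median -0.01). Of 5 plasma cell markers 0 had a positive and 3 a negative one (median -1.28). Of 10 measured NK cell markers 8 had a 2-fold negative interaction (median -1.66). The 14 NK cell markers on the design, dim ones included, summed to 4911 in WT spleen, 35830 in deltaDC spleen, 14800 in WT thymus and 18330 in deltaDC thymus. Most of each sum came from 2 genes, Nkg7 (2588, 23544, 7326 and 7537 in that order) and Gzma (385, 1744, 5442 and 7361). Ncr1, a receptor that marks NK cells, was well above background on the deltaDC spleen array only, at a signal of 72.0, and Klre1 likewise at 152, while Eomes and Prf1 had interactions of -0.01 and -0.25. Of 12 measured markers of gamma-delta T cells, natural killer T cells or innate lymphocytes 9 had a 2-fold negative interaction (median -2.12). The 14 such markers on the design summed to 14980, 29850, 15840 and 14770 in the same order. Il17re, a chain of the interleukin-17C receptor, had 49.8 in WT spleen, 1389.8 in deltaDC spleen, 76.1 in WT thymus and 130.2 in deltaDC thymus. These lists share members with those above: 1 of 32 effector Treg genes, 4 of 8 killer lectin-like receptors and 5 of 20 lineage factors are also NK or innate-like markers. Such counts depend on which markers the lists hold. Gzmb, Klrg1, Cxcr6 and Ccr2 of the effector Treg list are in neither, so genes that such cells also express can remain in it. The part of such cells in the effector, cytokine and receptor results was not tested.

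Of 4 measured neutrophil markers 1, Camp, was 2-fold higher in deltaDC spleen than in WT spleen, and the list's median difference there was -0.23. The 16 neutrophil markers on the design, dim ones included, had summed signals of 54390, 50650, 44780 and 39940. These sums are for the WT and deltaDC spleen and the WT and deltaDC thymus arrays in turn. Csf3r, a growth factor receptor, made 53687, 39586, 43560.1 and 37373 of them. Camp, the cathelicidin of neutrophil granules, had 24.2 in WT spleen, 610.2 in deltaDC spleen, 35.2 in WT thymus and 70.8 in deltaDC thymus, and 1 other of the 4 had a 2-fold negative interaction, Stfa3 (-1.01 after normexp), which was low in deltaDC thymus. A further 5 markers were dim on WT spleen alone and were lower by bound, S100a8, S100a9, Mpo, Ltf and Lcn2. S100a9 had 3.86 in WT spleen, 6456 in deltaDC spleen, 90.3 in WT thymus and 626 in deltaDC thymus. Ly6g, a defining neutrophil marker, was above background only on deltaDC spleen at 40.0. The part of these cells in the results was not tested. Of 11 measured macrophage and monocyte markers 4 were 2-fold higher in deltaDC spleen than in WT spleen (median difference 0.72), where 6.24% of all genes were. The 19 such markers on the design summed to 4394, 7376, 3379 and 3667 in that order of arrays. A negative 2-fold interaction was found for 2 of the 11, against 6.57% of all genes, and, by bound, for 2 more that were dim on some arrays. The 2 measured ones were Axl (-1.19) and C1qb (-1.12, or -0.68 after normexp background correction).

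**Figure D2:**
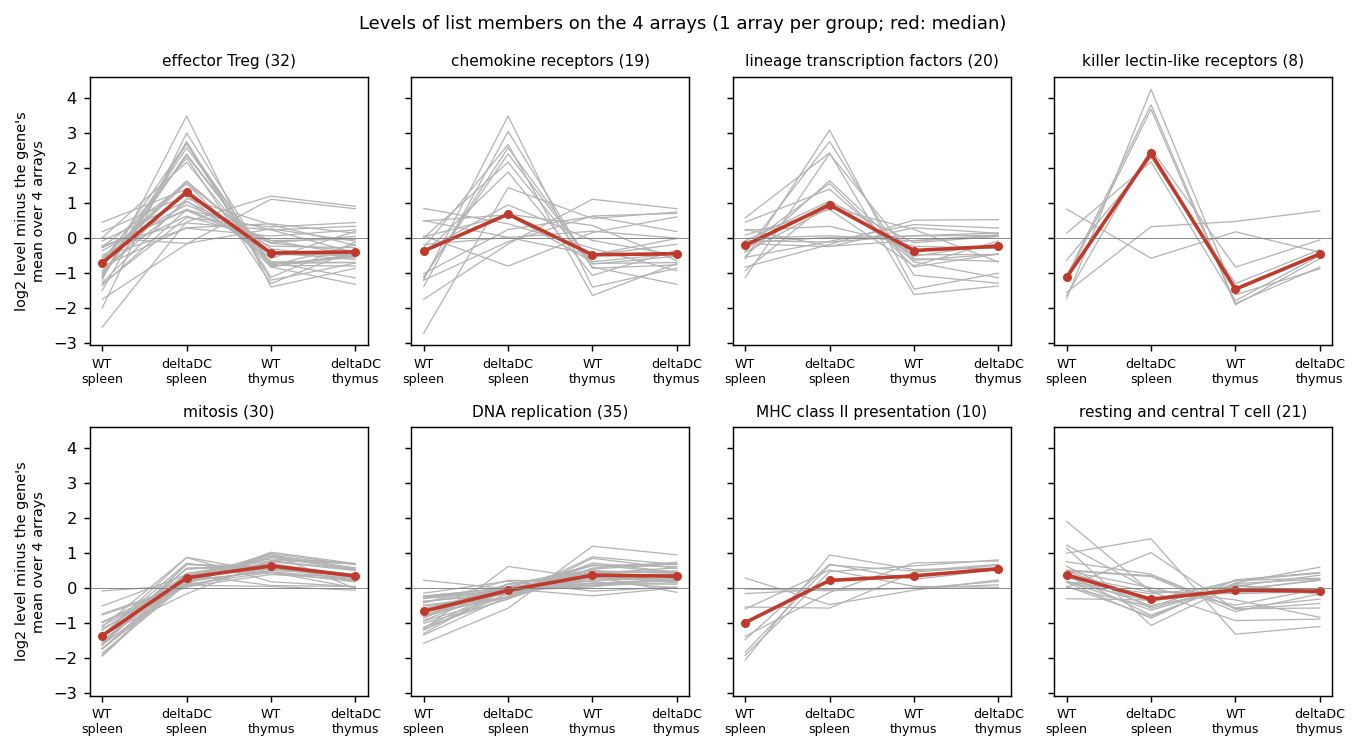
Each grey line is 1 measured gene of the list named above the panel, drawn as its log2 level on the 4 arrays minus its own mean, and the red line is the median of the list; each group is 1 array. Effector Treg, receptor and lineage factor panels peak at deltaDC spleen (effector Treg median interaction -1.91), whereas the mitosis panel dips at WT spleen with the other 3 arrays level (median interaction -2.13).

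Genes of resting and lymph node homing T cells went the other way. Of 21 measured genes 7 had a 2-fold positive interaction, against 2.34% of all genes, and none a negative one; the median was 0.85, with a genotype difference of -0.55 in spleen and 0.17 in thymus. Dapl1, a gene of naive T cells, had 2149 in WT spleen, 534 in deltaDC spleen, 301 in WT thymus and 310.2 in deltaDC thymus, so the WT spleen array stood alone and the interaction was 2.05 (spot error 0.15). Igfbp4, a binding protein of insulin-like growth factors, had 343 in WT spleen, 73.8 in deltaDC spleen, 166 in WT thymus and 136 in deltaDC thymus. Bach2, a repressor of effector genes, had 2411 in WT spleen, 1183 in deltaDC spleen, 2535 in WT thymus and 2929 in deltaDC thymus, with deltaDC spleen again the lowest array. Lef1 (0.85), Bcl2 (0.98) and Foxp1 (0.87) lay on the same side under 2-fold, and Il7r, the interleukin-7 receptor chain, lay on the other (-0.82).

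Seen as differences between organs, the interaction falls into organ differences that were present in WT and not in deltaDC, and others present in deltaDC and not in WT. Thymus and spleen differed 2-fold in WT for 1152 genes (9.38%), 794 (6.46%) higher in thymus and 358 (2.91%) higher in spleen, and in deltaDC for 1298 (10.6%), 582 (4.74%) higher in thymus and 716 (5.83%) higher in spleen. Among genes with a 2-fold interaction, the organ difference was 2-fold in WT alone for 349, of which 287 were higher in WT thymus, and in deltaDC alone for 405, of which 320 were higher in deltaDC spleen. After normexp background correction 155 genes were higher in thymus and 28 in spleen in WT alone, 32 were higher in thymus in deltaDC alone and 11 reversed. Without the filter on dim genes, 674 were higher in each organ in WT alone, and 699 in thymus and 760 in spleen in deltaDC alone. With the filter, the difference reversed for 24 genes, was 2-fold in both genotypes in the same direction for 95, and was under 2-fold in both for 221. The genes higher in deltaDC spleen only divided between the 2 patterns: of the 627, 255 gained a higher level in spleen over thymus and 228 lost a higher level in thymus.

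**Figure D3:**
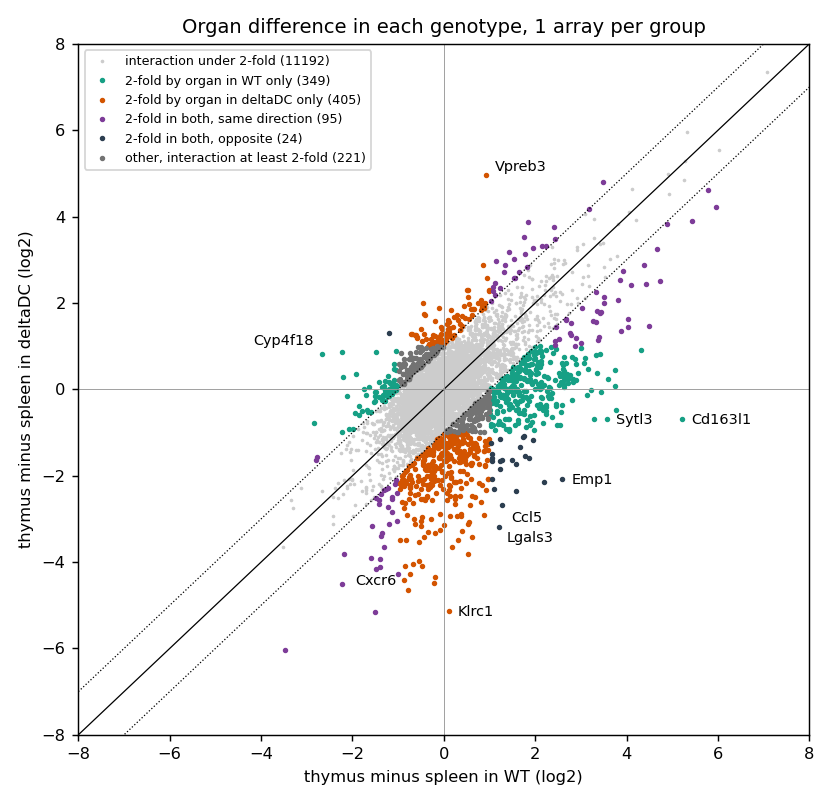
Each point is 1 of 12286 genes, with thymus minus spleen in WT on the horizontal axis and in deltaDC on the vertical axis, in log2 units from 1 array per group; dotted lines mark a 2-fold interaction. The 349 genes whose organ difference was 2-fold in WT only lie along the horizontal axis and the 405 with one in deltaDC only lie along the vertical axis, mostly below 0.

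Cell division genes differed between the organs in WT and hardly in deltaDC. Of 30 measured mitosis genes, 28 were 2-fold higher in thymus than in spleen in WT (median difference 2.09) and 0 in deltaDC (median 0.06), and 27 had a 2-fold negative interaction (median -2.13, or -1.44 after normexp background correction). WT spleen was the single lowest array for 25 of the 30, and deltaDC spleen the single highest for 0. The 2 members with the largest interaction are shown by their promoters, since mitosis genes are known to share promoter elements. These are the CHR, which holds them off outside division and is searched here as the letters TTTGAA, and the CCAAT box. The windows run from 250 bases before to 50 after the RefSeq start on GRCm38.p6, and capitals mark these letters on either strand; in Ube2c the run of 8 capitals holds overlapping CCAAT matches of both strands. Prc1 lies at chr7:80294201-80294500 on the plus strand and Ube2c at chr2:164769679-164769978 on the plus strand.
Prc1: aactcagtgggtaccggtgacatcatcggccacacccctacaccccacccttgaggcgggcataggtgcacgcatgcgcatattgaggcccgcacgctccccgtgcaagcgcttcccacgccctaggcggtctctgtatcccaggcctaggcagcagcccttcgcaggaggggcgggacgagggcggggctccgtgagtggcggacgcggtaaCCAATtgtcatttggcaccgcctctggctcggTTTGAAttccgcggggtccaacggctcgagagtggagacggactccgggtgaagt
Ube2c: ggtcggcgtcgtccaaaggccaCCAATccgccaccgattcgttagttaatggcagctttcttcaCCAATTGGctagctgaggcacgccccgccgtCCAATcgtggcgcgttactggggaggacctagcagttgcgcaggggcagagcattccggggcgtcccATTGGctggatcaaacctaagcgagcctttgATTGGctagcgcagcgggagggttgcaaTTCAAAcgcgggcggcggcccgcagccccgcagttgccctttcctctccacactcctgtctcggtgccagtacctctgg

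Prc1, which bundles the microtubules of the dividing spindle, had signals of 460.1 in WT spleen, 2153 in deltaDC spleen, 1601 in WT thymus and 1176 in deltaDC thymus. The WT spleen array was low, and the organ difference went from 1.80 in WT to -0.87 in deltaDC, an interaction of -2.67 (spot error 0.13). Ube2c, an enzyme that marks mitotic proteins for destruction, had 278 in WT spleen, 1349 in deltaDC spleen, 1303 in WT thymus and 1044 in deltaDC thymus and an interaction of -2.60. Cyclin A2 (Ccna2) had 256 in WT spleen, 1173 in deltaDC spleen, 1258 in WT thymus and 1029 in deltaDC thymus. Mki67, a proliferation antigen, had 1859 in WT spleen, 7106 in deltaDC spleen, 7691 in WT thymus and 5542 in deltaDC thymus. In each of these the deltaDC spleen array was level with the thymus arrays to within 2-fold, whereas WT spleen was at least 3.48-fold below WT thymus. The members under 2-fold were Cenpa (-0.92), Ndc80 (-0.86) and Hmmr (-0.27).

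Genes that copy DNA had a smaller median interaction. Of 35 measured DNA replication genes 10 had a 2-fold negative interaction and 0 a positive one, with a median of -0.64. In WT, 19 were 2-fold higher in thymus and in deltaDC 2 were. Rrm2, the inducible subunit of the enzyme that makes deoxynucleotides, had 1549.6 in WT spleen, 5358 in deltaDC spleen, 4221 in WT thymus and 4207 in deltaDC thymus. Uhrf1, which carries DNA methylation through replication, had 1378 in WT spleen, 2762 in deltaDC spleen, 9451 in WT thymus and 7961 in deltaDC thymus and kept a 2-fold organ difference in deltaDC (1.53). After normexp background correction 5 genes had a 2-fold interaction, and that of the helicase cofactor Cdc45 (-1.38) was -0.75. The subunits of the MCM helicase, which opens the DNA, had interactions from -1.06 (Mcm5) to -0.17 (Mcm7), and the clamp Pcna had -0.13. The cell cycle inhibitor p21 (Cdkn1a), of the p53 target list, had 23.5 in WT spleen, 201 in deltaDC spleen, 287 in WT thymus and 238 in deltaDC thymus, the same low WT spleen array and an interaction of -3.36, or -1.70 after normexp.

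The promoter letters set the lists apart. The CHR letters stood in 22 of 28 mitosis promoters found (78.6%), CCAAT in 23 (82.1%) and both in 20 (71.4%), against 18.1%, 37.9% and 7.12% of all 27025 promoters of the table. E2F letters (TTTGGCG or TTTCCCG, either strand) stood in 2 of 28 mitosis promoters (7.14%) and in 12 of 27 DNA replication promoters (44.4%), with 4.98% of all. Of 497 measured genes whose promoter held both CHR letters and CCAAT, 57 (11.5%) had a 2-fold negative interaction, compared with 611 of 9746 measured genes with any promoter (6.27%). WT spleen was the single lowest array for 39 of the 497 (7.85%, against 1.9% with any promoter) and deltaDC spleen the single highest for 3 (0.604%, against 2.13%). Outside the mitosis and replication lists, the shares with WT spleen lowest were 5.03% of 477 genes and 1.64% of 9694. Those lists have 35 and 36 entries, so other genes of cell division can remain among the 477. These shares describe letters in a window and the genes share arrays, so no test was made of them.

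On MHC class II, which presents antigen to CD4 T cells, 5 of 10 measured genes were 2-fold higher in thymus in WT and not in deltaDC. Of the 10, 6 had a 2-fold negative interaction and 1 a positive one (median -1.17). The 2 chains with the largest interaction are shown by their promoters, 300 bases on GRCm38.p6 with CCAAT letters of either strand in capitals, since class II genes share a conserved upstream module that ends in an inverted CCAAT box. H2-Aa lies at chr17:34287774-34288073 on the minus strand and H2-Eb1 at chr17:34305617-34305916 on the plus strand.
H2-Aa: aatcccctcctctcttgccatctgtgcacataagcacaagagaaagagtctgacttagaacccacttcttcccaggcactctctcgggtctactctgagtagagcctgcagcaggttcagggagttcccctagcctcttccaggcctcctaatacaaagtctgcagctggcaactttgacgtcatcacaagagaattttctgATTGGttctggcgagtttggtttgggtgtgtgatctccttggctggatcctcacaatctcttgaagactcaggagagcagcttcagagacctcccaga
H2-Eb1: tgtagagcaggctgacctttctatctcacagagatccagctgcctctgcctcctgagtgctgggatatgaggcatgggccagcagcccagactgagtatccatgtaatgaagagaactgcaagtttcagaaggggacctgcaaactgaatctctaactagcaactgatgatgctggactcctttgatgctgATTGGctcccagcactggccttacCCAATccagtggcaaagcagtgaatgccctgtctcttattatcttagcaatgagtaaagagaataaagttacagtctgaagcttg

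H2-Aa, the alpha chain of I-A, had 163 in WT spleen, 1309 in deltaDC spleen, 981 in WT thymus and 1011 in deltaDC thymus. WT spleen stood alone as the low array and the organ difference of 2.59 in WT was -0.37 in deltaDC. H2-Eb1, the beta chain of I-E, had 1237 in WT spleen, 6957 in deltaDC spleen, 6195 in WT thymus and 7072 in deltaDC thymus. H2-Ab1, the beta chain of I-A, had 1265 in WT spleen, 6659 in deltaDC spleen, 7459 in WT thymus and 8399 in deltaDC thymus. The invariant chain Cd74, which guides class II molecules, had 1505 in WT spleen, 6695 in deltaDC spleen, 4948 in WT thymus and 6004 in deltaDC thymus, and in all 4 genes WT spleen lay at least 3.29-fold below WT thymus. The peptide exchange chain H2-DMb1 had an interaction of -1.19, its partner H2-DMa 0.07, and H2-Ob, of the DO regulator, 1.05. The class II transactivator Ciita was not well above background on any array. CCAAT letters stood in 7 of 10 promoters of the list (70.0%) and CHR letters in 0.

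Cells that present antigen by profession were sought by their markers. Of 16 conventional dendritic cell markers on the design 6 were measured. The 16 summed to 6398, 8543, 7201 and 6567 on the WT and deltaDC spleen and the WT and deltaDC thymus arrays in turn. Of the 6 measured, Batf3 (-1.49) and Cd80 (-1.30, or -0.90 after normexp background correction) had a 2-fold negative interaction. Itgax (CD11c) had 6.52 in WT spleen, 93.6 in deltaDC spleen, 212 in WT thymus and 173 in deltaDC thymus. Zbtb46, which defines the lineage, had 17.0 in WT spleen, 90.5 in deltaDC spleen, 74.6 in WT thymus and 65.8 in deltaDC thymus. Both were dim on WT spleen only, as was Ccl17, and were lower by bound. Clec9a and Xcr1, markers of cross-presenting dendritic cells, were above background on no array. Of 5 measured B cell markers 4 had a positive 2-fold interaction, where 2.34% of all genes did. Their median deltaDC minus WT difference was -0.38 in spleen and 0.99 in thymus. Ms4a1, the CD20 antigen, had 4.64 in WT spleen, 21.7 in deltaDC spleen, 269 in WT thymus and 803 in deltaDC thymus. It was dim on WT spleen and so stood outside those 5. The part of such cells in the class II result was not tested.

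**Figure D4:**
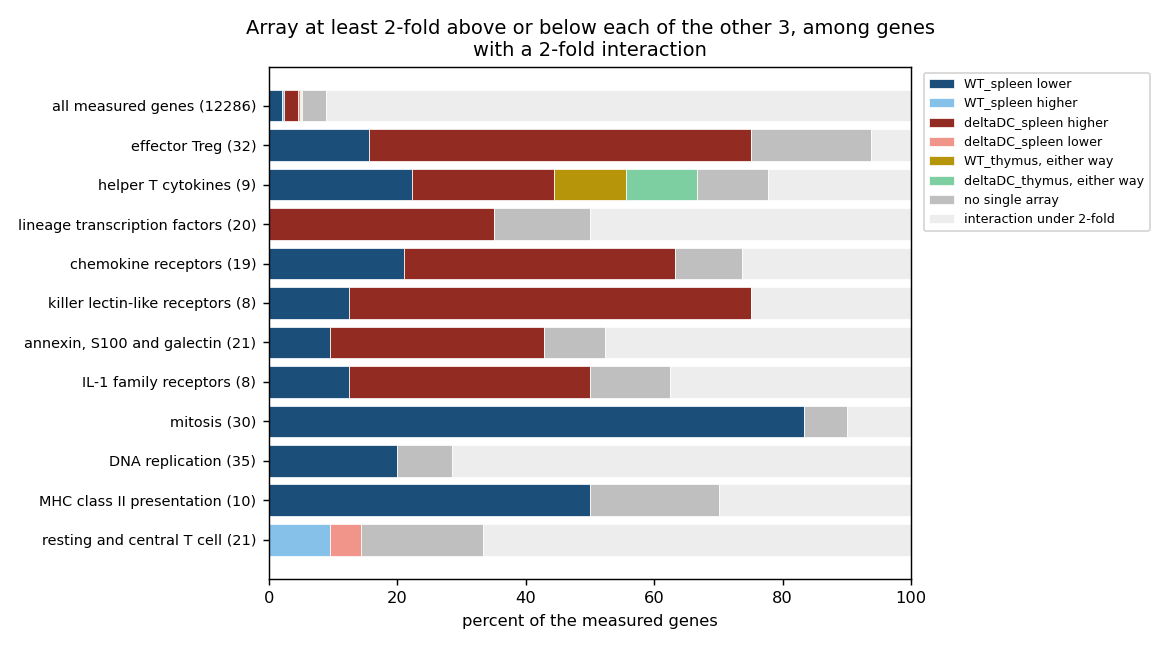
Each bar is a list, with its number of measured genes, and its colours give the percent of those genes for which 1 array lay at least 2-fold above or below each of the other 3, had a 2-fold interaction with no single array apart, or had an interaction under 2-fold. The deltaDC spleen array as highest fills most of the effector Treg bar (19 of 32), and the WT spleen array as lowest most of the mitosis bar (25 of 30).

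Single genes that are neither of mitosis nor of class II presentation also had a 2-fold organ difference in WT and none in deltaDC. Cd163l1, a scavenger receptor of gamma-delta T cells and of the innate-like list above, had an interaction of -5.90 (spot error 0.30; -4.24 after normexp), from signals of 35.3 in WT spleen, 1467 in deltaDC spleen, 1315 in WT thymus and 915 in deltaDC thymus. It was 37.2-fold higher in WT thymus than in WT spleen and 1.60-fold lower in deltaDC thymus than in deltaDC spleen. Its relative 5830411N06Rik, of the same list, had 60.3 in WT spleen, 583 in deltaDC spleen, 827 in WT thymus and 419 in deltaDC thymus. Sytl3, which docks secretory vesicles, had 172 in WT spleen, 2870.4 in deltaDC spleen, 2042 in WT thymus and 1786 in deltaDC thymus. In all 3 WT spleen was the low array. The endothelial and progenitor receptor Cd93 had 82.3 in WT spleen, 1193 in deltaDC spleen, 893 in WT thymus and 1139 in deltaDC thymus. Bhlhe40, a clock and cytokine regulator, had 349 in WT spleen, 1431 in deltaDC spleen, 1182 in WT thymus and 965 in deltaDC thymus, with the same low array.

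In the other direction, 62 genes were higher in WT spleen than in WT thymus and not so in deltaDC. Cyp4f18, a cytochrome P450 that inactivates leukotriene B4, had 8791 in WT spleen, 118 in deltaDC spleen, 1377 in WT thymus and 207 in deltaDC thymus. It was lower in deltaDC in both organs, by 74.3-fold in spleen and 6.65-fold in thymus, and the organ difference of -2.67 in WT was 0.81 in deltaDC. The potassium channel gene Kcnh6 had 318 in WT spleen, 25.5 in deltaDC spleen, 67.8 in WT thymus and 46.4 in deltaDC thymus. Stra6, a retinol uptake receptor, had 262 in WT spleen, 53.2 in deltaDC spleen, 57.0 in WT thymus and 64.6 in deltaDC thymus. Both were high on WT spleen alone, with interactions of 3.09 and 2.48, or 1.84 and 1.59 after normexp.

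The 320 genes that became higher in deltaDC spleen than in deltaDC thymus were led by Klrc1, Ltb4r1, Arl4d, Cxcr6 and Il17re. Arl4d, a small GTPase, had 54.7 in WT spleen, 1091 in deltaDC spleen, 46.9 in WT thymus and 49.0 in deltaDC thymus and an organ difference of -0.22 in WT and -4.47 in deltaDC. From the lists, this class held 19 effector Treg genes, 8 chemokine receptors and 0 of the 30 mitosis genes. The 85 genes that became higher in deltaDC thymus were led by Vpreb3 and Pkhd1. Thsd1 had 85.9 in WT spleen, 20.9 in deltaDC spleen, 156 in WT thymus and 154 in deltaDC thymus, so that deltaDC spleen was low, and its interaction of 2.02 was 0.90 after normexp background correction.

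Of the 24 reversed organ differences, 22 belonged to genes higher in deltaDC spleen only, with a higher level in thymus in WT and in spleen in deltaDC. Emp1, an epithelial membrane protein, had an interaction of -4.66, with 107.3 in WT spleen, 2159.8 in deltaDC spleen, 647 in WT thymus and 514 in deltaDC thymus. The interferon-induced membrane protein Ifitm1 had 62.7 in WT spleen, 2983 in deltaDC spleen, 289 in WT thymus and 672 in deltaDC thymus, and was also 2.33-fold higher in deltaDC thymus than in WT thymus. Qpct, an enzyme that caps peptide ends, had 34.9 in WT spleen, 412 in deltaDC spleen, 126 in WT thymus and 137 in deltaDC thymus. In each of these the thymus arrays lay between the 2 spleen arrays. Tgfb3, a ligand of the TGF-beta family, also reversed, with 43.2 in WT spleen, 335 in deltaDC spleen, 101 in WT thymus and 93.2 in deltaDC thymus. The interactions of Qpct and Tgfb3 were -3.44 and -3.07, or -2.18 and -1.85 after normexp. Of genes above, Lgals3, Ccl5, Il18rap, Il18r1 and Nkg7 were in the same class.

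Genotype differences present in thymus and not in spleen were few and mostly at low signal. Among the 16 higher genes, Vpreb3, a gene of developing B cells, had 72.8 in WT spleen, 41.8 in deltaDC spleen, 137 in WT thymus and 1304 in deltaDC thymus and an interaction of 4.05 (spot error 0.31). Cd79a, a B cell receptor chain, had 43.8 in WT spleen, 33.6 in deltaDC spleen, 158 in WT thymus and 490.3 in deltaDC thymus. The 13 B cell markers on the design, dim ones included, summed to 2330 in WT spleen, 2170 in deltaDC spleen, 4020 in WT thymus and 8185 in deltaDC thymus. Pax5, which defines the lineage, was above background on no array. Pkhd1, a large membrane protein of epithelia, had 39.6 in WT spleen, 46.0 in deltaDC spleen, 29.0 in WT thymus and 185 in deltaDC thymus, an interaction of 2.46 or, after normexp, 1.46. The part of B cells in these values was not tested.

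Erythroid genes were higher in deltaDC in both organs. Of 8 measured, 7 were 2-fold higher in spleen and 6 in thymus, where 6.24% and 0.537% of all genes were. The alpha globin Hba-a2 had 7144 in WT spleen, 17780.3 in deltaDC spleen, 13341 in WT thymus and 53144 in deltaDC thymus. The 12 erythroid markers on the design summed to 9519, 24230, 17810 and 71060 on the WT and deltaDC spleen and the WT and deltaDC thymus arrays in turn. Of the 8 measured, 2 had a 2-fold positive interaction, against 2.34% of all genes. They were Hbb-bs (1.26) and Alas2 (1.07, or 0.91 after normexp background correction).

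Among the 28 genes lower in deltaDC thymus only, Cd209d, a C-type lectin of the DC-SIGN family, had 27.4 in WT spleen, 29.9 in deltaDC spleen, 205 in WT thymus and 34.8 in deltaDC thymus, so that WT thymus stood alone (interaction -2.68, or -1.44 after normexp). Tcf4, the factor that sets plasmacytoid dendritic cell identity, had 147 in WT spleen, 191 in deltaDC spleen, 592 in WT thymus and 242 in deltaDC thymus. Cd209a (119.5) and Clec10a (71.4), lectins of conventional dendritic cells, passed background on the WT thymus array only. Siglech, a plasmacytoid marker, had an interaction of 0.44, and 3 of 7 measured plasmacytoid markers had a 2-fold negative one. The 11 plasmacytoid markers on the design summed to 85670, 63650, 70800 and 67290 on the WT and deltaDC spleen and the WT and deltaDC thymus arrays in turn. The clock gene Per3 had 21.9 in WT spleen, 37.2 in deltaDC spleen, 96.0 in WT thymus and 37.8 in deltaDC thymus, and its interaction of -2.11 was -0.84 after normexp background correction. Hspa1a, which was lower in deltaDC in both organs and more so in thymus, had an interaction of -1.17. The inducible Hsp70 it encodes is a stress chaperone, and its signals were 144 in WT spleen, 51.1 in deltaDC spleen, 7960.4 in WT thymus and 1255 in deltaDC thymus. Fosb, an AP-1 subunit, had 118 in WT spleen, 119.8 in deltaDC spleen, 249.5 in WT thymus and 106.8 in deltaDC thymus and an interaction of -1.24, or -0.78 after normexp background correction.

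In 10 genes the 2 organs went in opposite directions by at least 2-fold each. Ifng led them, 3.64-fold higher in deltaDC spleen and 2.67-fold lower in deltaDC thymus. Kif11, a spindle motor, had 66.6 in WT spleen, 169 in deltaDC spleen, 294 in WT thymus and 147 in deltaDC thymus. Gpr15, a gut homing receptor, had 318 in WT spleen, 660.5 in deltaDC spleen, 528 in WT thymus and 263 in deltaDC thymus. Fcmr, the receptor for immunoglobulin M, went the other way, with 436 in WT spleen, 182 in deltaDC spleen, 189 in WT thymus and 449 in deltaDC thymus, and its organ difference reversed from -1.21 in WT to 1.30 in deltaDC.

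Genes of the core Treg programme mostly differed by less than 2-fold between genotypes in both organs. Of 18 measured genes 2 had a 2-fold interaction, both positive, against 2.34% of all genes, and the list's median was -0.02. Foxp3 had 11661 in WT spleen, 10867 in deltaDC spleen, 8860.4 in WT thymus and 10557 in deltaDC thymus, an interaction of 0.35 (spot error 0.10). Ctla4, an inhibitory receptor (0.07), Ikzf2, the factor Helios (-0.08), and Tnfrsf18, the receptor GITR (-0.03), were near 0. Il2ra, the CD25 chain used for the sort, had 28939 in WT spleen, 15485 in deltaDC spleen, 28097 in WT thymus and 25470.2 in deltaDC thymus and an interaction of 0.76. The 2 exceptions were Lrrc32 (GARP, which presents latent TGF-beta), with 37495 in WT spleen, 17818 in deltaDC spleen, 22563 in WT thymus and 23634 in deltaDC thymus, and Gpr83. This orphan receptor had 379.8 in WT spleen, 138 in deltaDC spleen, 255 in WT thymus and 321 in deltaDC thymus, and deltaDC spleen was lowest for both.

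Several large functions held no gene with a 2-fold interaction in either direction. These were T cell receptor signal response (22 measured genes, median 0.04), MHC class I and peptide loading (17, median -0.01), interferon-inducible GTPases (17, median 0.13), cholesterol synthesis (23, median 0.09), oxidative phosphorylation (33, median 0.16), cytosolic ribosomal proteins (37, median 0.46) and Gimap GTPases of lymphocyte survival (8, median 0.18). Together they hold 157 measured genes. The lists were grouped here because they held none, so the 8.9% of all genes past 2-fold either way is no test of them. Bright genes passed the limit less often: at a mean scaled signal of 1000 and over, 2.3% had a negative and 0.787% a positive 2-fold interaction. Ribosomal protein genes had a median genotype difference of -0.27 in spleen and 0.20 in thymus, and their median interaction was 0.11 after quantile normalization and 0.13 in the deposited matrix.

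**Figure D5:**
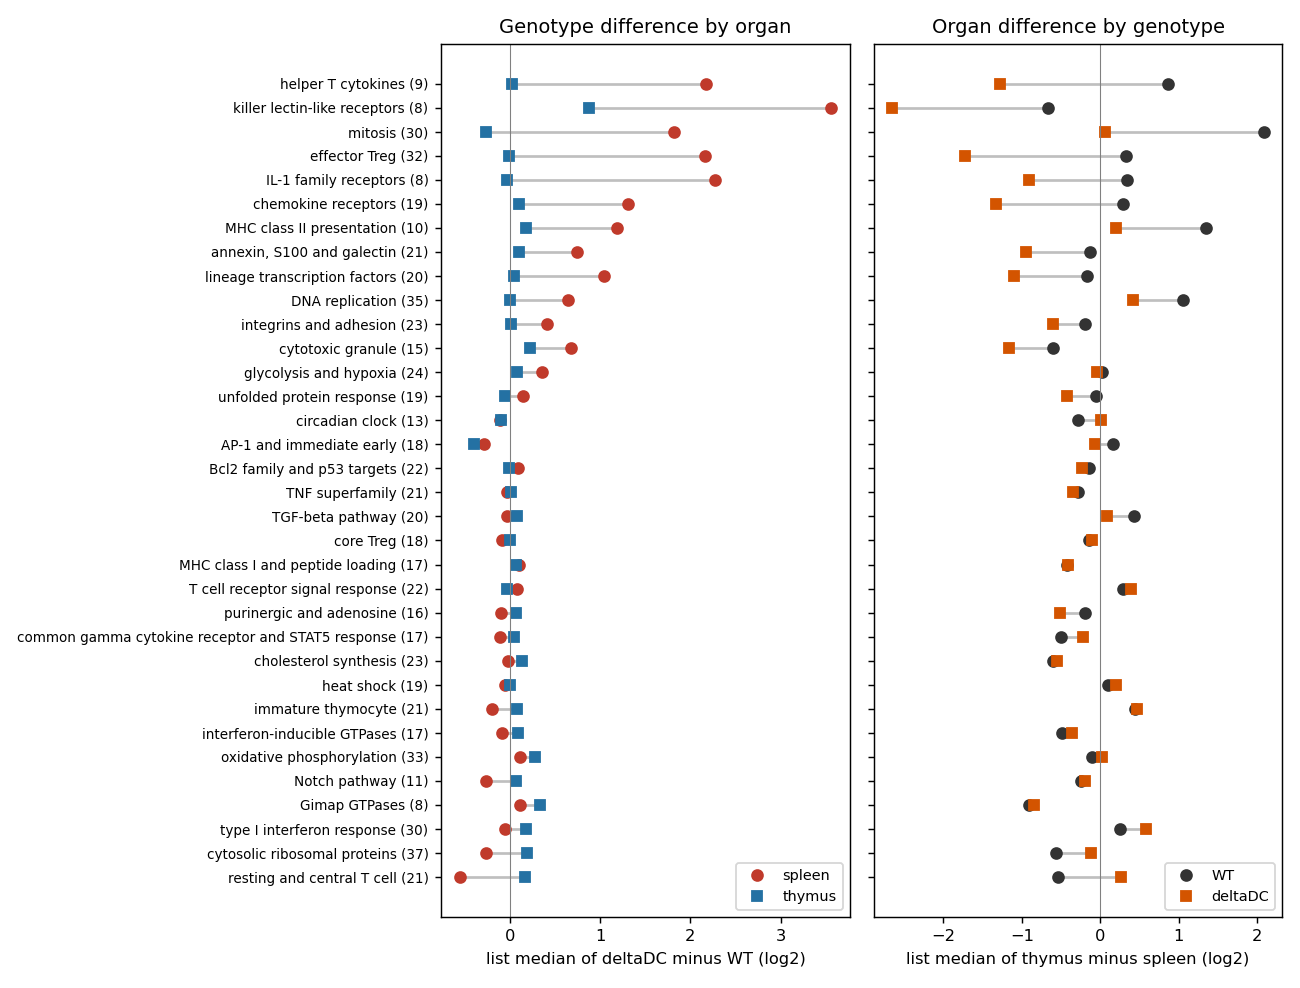
Medians of the 34 function lists, sorted by median interaction, with the number of measured genes in brackets. The left panel gives deltaDC minus WT in spleen (circles) and thymus (squares), the right panel thymus minus spleen in WT (circles) and deltaDC (squares), in log2 units from 1 array per group; effector Treg moves from 0.34 to -1.72 on the right and mitosis from 2.09 to 0.06.

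Smaller shifts were spread over other functions, to be read beside 6.57% of all genes with a negative and 2.34% with a positive 2-fold interaction. Of 30 type I interferon response genes 3 had a positive 2-fold interaction (median 0.23): Usp18 (1.13), Ifit1 (1.08) and Oasl1 (1.06), the last 2 at 0.93 and 0.96 after normexp background correction. Of 19 unfolded protein response genes 4 had a negative and 1 a positive one, Asns, which makes asparagine, having 177 in WT spleen, 643 in deltaDC spleen, 348 in WT thymus and 244 in deltaDC thymus. The stress sensor Ern1 had 283 in WT spleen, 864 in deltaDC spleen, 311 in WT thymus and 299 in deltaDC thymus. Of 23 integrin and adhesion genes 8 were negative and 2 positive, with Itga6, the laminin receptor chain, among the positive ones (1.07). Itgae, the CD103 chain that binds epithelium, had 552 in WT spleen, 2064 in deltaDC spleen, 1715 in WT thymus and 1873 in deltaDC thymus.

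Some AP-1 and immediate early genes were lower in deltaDC in both organs. Of 18 measured genes of the list 3 were 2-fold lower in deltaDC spleen, where 232 (1.89%) of all genes were, and 5 in deltaDC thymus, where 70 (0.57%) were. Another 2, Fosl2 (1.62) and Gadd45b (1.09), were 2-fold higher in deltaDC spleen. Fos had 896 in WT spleen, 264 in deltaDC spleen, 2157 in WT thymus and 578 in deltaDC thymus, lower in deltaDC by 3.40-fold in spleen and 3.74-fold in thymus, with an interaction of -0.14 (spot error 0.05). Jun had 24357 in WT spleen, 10431 in deltaDC spleen, 39911 in WT thymus and 17801 in deltaDC thymus and an interaction of 0.06. Only 34 genes in all differed 2-fold by genotype in both organs in the same direction with an interaction under 2-fold.

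Organ differences that both genotypes shared included genes of thymocyte development. Of 511 genes with a 2-fold organ difference in both genotypes and one direction, 416 had an interaction under 2-fold, 281 of them higher in thymus (2.29% of all genes) and 135 in spleen. Of 21 measured immature thymocyte genes 6 were among the 281. Dntt, the enzyme that adds bases when receptor genes are joined, had 343 in WT spleen, 258 in deltaDC spleen, 46281 in WT thymus and 42148 in deltaDC thymus, an organ difference of 7.08 in WT and 7.35 in deltaDC. Cd24a, a surface protein of immature cells, had 96.6 in WT spleen, 153 in deltaDC spleen, 3694 in WT thymus and 4409.6 in deltaDC thymus. Sox4, a developmental factor, had 641 in WT spleen, 452 in deltaDC spleen, 6309 in WT thymus and 6928 in deltaDC thymus. On the spleen side Ly6c1, of the resting T cell list, had 37955 in WT spleen, 50508 in deltaDC spleen, 7619 in WT thymus and 8872 in deltaDC thymus. Rag1 and Ptcra, of receptor rearrangement and the pre-receptor, were dim on at least 1 spleen array and bright on both thymus arrays (Rag1 2532 and 2374, Ptcra 3573 and 3192). Of the 21 thymocyte genes 2 (9.52%) had a 2-fold interaction, both negative, where 6.57% of all genes had a negative one. The gut homing receptor Ccr9 (-1.03) was among them.

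Genes that were dim on part of the arrays stand outside these counts. There were 2235 such genes, and 7775 others were above background on no array. Dim on WT spleen alone were 352, and dim on deltaDC spleen alone 87. Where the dim arrays all pull the value one way, a bound can be set, with a dim array taken at the higher of its own signal and the lowest signal well above background on that array. By that bound 191 further genes had an interaction of -1 or below, 157 of them dim on WT spleen only, and 98 one of 1 or above, 55 of them dim on deltaDC spleen only. Where the dim signal itself was the higher one, the bound is a plain ratio; 137 of the 191 and 32 of the 98 were strict. S100a9 had the largest, at most -5.75, followed by Snai2, a repressor of adhesion genes, at most -5.22 with 10.98 in WT spleen, 86.4 in deltaDC spleen, 135 in WT thymus and 18.1 in deltaDC thymus. Trpm6, a magnesium channel, had at most -5.15 with 30.9 in WT spleen, 469 in deltaDC spleen, 37.0 in WT thymus and 14.8 in deltaDC thymus, dim on deltaDC thymus only, and Cd70, a costimulatory ligand, at most -4.09 with 17.2 in WT spleen, 219 in deltaDC spleen, 203 in WT thymus and 151 in deltaDC thymus.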

How the data were processed

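The members, gene lists and comparisons were chosen with earlier results of these data known. Fluorescence intensity was deposited as 4 one-colour scanner files made with Agilent Feature Extraction 10.7.3.1, per the file headers, together with other columns holding 0 or 1 flags. The authors also deposited a log2 matrix, which its header calls background-subtracted and quantile-normalized. Its columns had a Pearson r of 0.997 across genes with their own scanner arrays, and any rescaling of it stays unknown. The labels state 10 ng of RNA per labelling.

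From the processed signals, outlier-flagged and control spots were removed, log2 values minus each array's 75th percentile (340.0 to 417) were taken, repeated spots were averaged, and a gene's brightest probe stood for it. The array design has 62976 spots. Probe accessions were matched to RefSeq's GRCm38 table, which named 27509 of 55681 probes, with 3549 more named by symbol and 24623 unnamed. Genes well above background on all 4 arrays were kept. Spot error came from repeated spots as a function of signal. The calculations were checked on simulated data (Python 3.11.15, numpy 2.4.6).

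Named genes were, by rule, those with the largest interaction in each genotype and organ class at 3 or more spot errors with probes of one sign, the 4 largest of each function list and 2 largest of each marker list, 5 core Treg genes and the largest bounds. Other list members were named after their values were seen. Of 968 list entries in 34 function and 15 marker lists (880 genes), 694 genes were measured and 78 stand in more than 1 list. Promoter windows came from RefSeq's table for GRCm38.p6. Alternatives were normexp background correction with an offset of 50 (limma 3.58.1, R 4.3.3), quantile normalization, median scaling, the deposited matrix, other filters on dim genes, the median over a gene's probes, and a limit of 3 spot errors. Some genes that the rule names are not reported here.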

Additional observations from a re-analysis of the deposited data

Results flagged for a closer look

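In 10 genes the genotype difference went in opposite directions in the 2 organs, by at least 2-fold in each. Because each group has 1 array, the difference between organs was not tested. Higher in deltaDC spleen and lower in deltaDC thymus were Ifng, with an interaction of -3.28, Serinc2 (-3.05), Ccdc80 (-2.94), Shtn1 (-2.83), Ildr1 (-2.54), Ccn4 (-2.51), the spindle motor Kif11 (-2.34) and the gut homing receptor Gpr15 (-2.06). Lower in deltaDC spleen and higher in deltaDC thymus were Ube2d1, a ubiquitin-conjugating enzyme, with 2.35, and Fcmr, the receptor for immunoglobulin M, with 2.51. Of these, 5 had a higher level in spleen in deltaDC only, and 2 a higher level in thymus in WT only. After normexp background correction 2 genes of this kind were counted, and the interactions of Serinc2 (-1.26), Ccdc80 (-1.06), Shtn1 (-1.71), Ildr1 (-1.56) and Ccn4 (-1.58) were over 1.5 times smaller.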

How the results depend on the processing

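Of 112 named genes with a 2-fold interaction and 14 list medians of that size, 0 changed sign under the 7 of 8 alternatives that gave them a value. The limit of 3 spot errors gave none, and a mean signal of at least 100 covered 87 of the 112 genes. No paired analysis was possible because each group has 1 array, and no array could be left out for the same reason. Quantile normalization, median scaling, the deposited matrix, the median over probes and a limit of 3 spot errors kept each of the 21 counts within 1.5 times. Normexp background correction gave 507 negative and 111 positive interactions (main values 807 and 287), 434 genes different in spleen only, 17 in thymus only and 2 in opposite directions. It gave 155 and 28 genes whose organ difference was in WT only (thymus higher and spleen higher), 32 with one in deltaDC only and thymus higher, 11 reversed, 125 with WT spleen lowest and 5 DNA replication genes, and it moved 84 of all 117 named genes by more than their spot error and 8 of 49 list medians, bringing 23 of the 112 under 2-fold. Without a filter on dim genes there were 2012 negative and 2025 positive interactions over 22296 genes, so 49.8% of calls were negative in place of 73.8%. The classes then held 2125 (spleen only), 848 (thymus only), 210 (opposite), 674 and 674 (organ difference in WT only, either way), 699 and 760 (in deltaDC only, thymus and spleen higher) and 228 genes (reversed). WT spleen was lowest for 474 and deltaDC spleen highest for 641. With a mean signal of at least 100, there were 169 positive interactions, 14 genes in thymus only, 40 with an organ difference in WT only and spleen higher, and 50 with one in deltaDC only and thymus higher. By a second detection flag 233 genes were dim on deltaDC spleen alone, against 87. The cause of these shifts was not tested. Signal sets the precision: the SD between spots of 1 probe was 0.26 log2 units at a signal of 33.5 and 0.05 at 18829. A negative interaction was found for 201 of 1635 genes with a mean scaled signal under 100, 460 of 4297 from 100 to under 1000 and 146 of 6354 at 1000 and over.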

Other observations

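Death, survival and signalling genes outside the functions above included single members high on deltaDC spleen. Bik, a killer of the Bcl2 family, had scaled signals of 37.4 in WT spleen, 278 in deltaDC spleen, 39.3 in WT thymus and 52.4 in deltaDC thymus. Pmaip1 (Noxa) had 674 in WT spleen, 1596 in deltaDC spleen, 699.5 in WT thymus and 673 in deltaDC thymus. Tnfsf14, the ligand LIGHT, had 770.1 in WT spleen, 3975 in deltaDC spleen, 906 in WT thymus and 688 in deltaDC thymus. Fasl, the death ligand, had 486 in WT spleen, 2059.8 in deltaDC spleen, 164 in WT thymus and 231 in deltaDC thymus. These 4 had interactions of -2.48 (-1.52 after normexp background correction), -1.30, -2.76 and -1.58, in lists whose medians were near 0 (-0.08 for the Bcl2 and p53 list and -0.08 for the TNF superfamily). Id1, an inhibitor of differentiation factors, went the other way to Id2, with 90.4 in WT spleen, 35.9 in deltaDC spleen, 88.6 in WT thymus and 95.2 in deltaDC thymus and an interaction of 1.44, or 0.82 after normexp background correction. Kit, the stem cell factor receptor, had 96.4 in WT spleen, 599 in deltaDC spleen, 1589 in WT thymus and 1868 in deltaDC thymus, low on WT spleen. Ccl25, a chemokine of thymic epithelium, had 672 in WT spleen, 377 in deltaDC spleen, 970.0 in WT thymus and 1662 in deltaDC thymus for its brightest probe, and its interaction of 1.61 was 0.42 by the median over its probes.

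Probes with no gene name split the other way from named genes. Of 7560 such probes well above background on all 4 arrays, 448 (5.93%) had a positive and 164 (2.17%) a negative 2-fold interaction, and their median interaction was 0.22 against 0.07 for named genes. Their median scaled signal was 156, against 776 for named probes. By signal there were 276 positive and 86 negative among 3029 probes under 100, 126 and 61 among 2811 from 100 to under 1000, and 46 and 17 among 1720 at 1000 and over. Of the unnamed probes, 476 were 2-fold lower and 112 higher in deltaDC spleen than in WT spleen.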
